A study of Mus musculus with 2 samples.

Results

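Ndrg1 and 9 genes commonly induced by low oxygen were followed in mouse embryonic ureters with and without a Tbx2 gain of function. They were taken by name (Ndrg1, Vegfa, Slc2a1, Pdk1, Ldha, Pgk1, Bnip3, Egln3, Adm and Car9), with every non-control probe that the scanner files assign to them: 16 of 39429 probes, and 10 of the 21097 genes tested. None of the 10 genes passed the test between genotypes, beside 0.640% of all genes tested. Adm, which encodes the vasodilator peptide adrenomedullin, stood farthest from 0, at a log2 ratio of 0.61 ± 0.04 (SD, n = 2 arrays), and Ndrg1 was at -0.08 ± 0.26.

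Total RNA of E13.5 ureters from male NMRI embryos was hybridised to 2 two-colour Agilent arrays, each holding 1 Tbx2-GOF and 1 control extract. Tbx2-GOF embryos were Tbx18(cre/+);Hprt(Tbx2/Y), and control embryos were Tbx18(+/+);Hprt(Tbx2/Y). Both genotypes therefore carried Tbx2 inserted at Hprt on the X chromosome. The Tbx2-GOF embryos alone carried cre, at 1 Tbx18 allele, so cre and the loss of that Tbx18 copy go together in this comparison. The Tbx18 locus drives cre in the ureteric mesenchyme, whereas whole ureters, epithelium and vessels included, were extracted. The dyes were swapped: the Tbx2-GOF extract was labelled with AlexaFluor647 on array 1 and with AlexaFluor555 on array 2. The labels do not say if arrays 1 and 2 used RNA of different embryos. The array-to-array spread behind every p-value here, which limma pools in part over all genes, may therefore be purely technical. The SD beside a ratio is of that gene alone. In whole ureters, a change in the number of cells of a type and a change in RNA per cell cannot be told apart.

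Cells sense oxygen through the hypoxia-inducible factors (HIF). In the presence of oxygen, prolyl hydroxylases of the EGLN family modify the HIF alpha subunits, which VHL then marks for destruction; in low oxygen the alpha subunits accumulate, pair with ARNT and bind hypoxia response elements with the core ACGTG or GCGTG. The genes that they switch on raise glucose uptake and glycolysis, restrain mitochondrial respiration, promote vessel growth and feed back on HIF itself. NDRG1, a cytoplasmic protein named for its repression by MYCN, is induced by hypoxia as well, and it has been reported as a gene that TBX2 represses together with EGR1 in human breast cancer cells. The comparison asks whether Ndrg1 differed between genotypes and whether other hypoxia-response genes did so in the same direction.

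Start-site windows of 4 of the genes are shown: Adm has the highest ratio, Slc2a1 and Ldha have the next ones, and Car9 is a widely used marker of hypoxia. Sequences are from RefSeq (GRCm38.p6), from 250 bases before to 50 bases after the start site, 5′ to 3′ on the gene's strand, and positions count from the start site. Capitals mark ACGTG or GCGTG on either strand (read as CACGT or CACGC on the opposite strand).

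Adm (chr7:110627407-110627706, plus strand): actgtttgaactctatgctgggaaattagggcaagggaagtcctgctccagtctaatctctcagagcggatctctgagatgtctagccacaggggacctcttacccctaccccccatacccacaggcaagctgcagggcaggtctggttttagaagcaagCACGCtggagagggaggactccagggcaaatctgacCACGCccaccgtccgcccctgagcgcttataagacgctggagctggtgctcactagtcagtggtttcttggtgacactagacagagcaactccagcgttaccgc

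Slc2a1 (chr4:119108495-119108794, plus strand): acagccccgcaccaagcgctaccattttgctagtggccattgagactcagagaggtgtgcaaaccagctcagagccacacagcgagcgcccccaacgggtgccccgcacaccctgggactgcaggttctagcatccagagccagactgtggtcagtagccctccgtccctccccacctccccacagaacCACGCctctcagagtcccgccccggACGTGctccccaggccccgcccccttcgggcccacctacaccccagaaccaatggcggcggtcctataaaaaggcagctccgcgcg

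Ldha (chr7:46845554-46845853, plus strand): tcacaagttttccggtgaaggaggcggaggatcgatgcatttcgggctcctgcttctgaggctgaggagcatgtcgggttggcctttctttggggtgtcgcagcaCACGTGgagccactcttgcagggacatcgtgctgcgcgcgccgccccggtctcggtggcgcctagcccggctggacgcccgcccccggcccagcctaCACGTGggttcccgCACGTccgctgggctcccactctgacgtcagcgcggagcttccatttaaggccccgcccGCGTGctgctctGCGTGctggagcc

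Car9 (chr4:43506776-43507075, plus strand): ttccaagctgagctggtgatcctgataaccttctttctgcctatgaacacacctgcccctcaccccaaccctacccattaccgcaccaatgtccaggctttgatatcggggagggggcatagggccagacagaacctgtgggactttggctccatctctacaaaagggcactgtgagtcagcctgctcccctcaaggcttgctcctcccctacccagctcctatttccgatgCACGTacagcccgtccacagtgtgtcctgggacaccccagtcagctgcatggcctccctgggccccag

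In the Adm window GCGTG lies on the opposite strand at -90 to -86 and at -54 to -50. The Car9 window has 1 ACGTG, on the opposite strand at -18 to -14. The Ldha window has 5 matches to ACGTG, of which 4 are the 2 strands of a pair of CACGTG palindromes, and 2 to GCGTG. Windows were at hand for 9 of the 10 genes (12 windows, since Vegfa, Pdk1 and Ldha have 2 each). Ndrg1 was the gene without a window, so none of these motifs was searched for at its start site. At least 1 window of each of the 9 genes held ACGTG or GCGTG, as did 10 of the 12 windows and 43.8% of all 32841 windows of this length. For Vegfa the matches lay in the downstream window alone (chr17:46025114-46025413, minus strand), and the upstream window (chr17:46032328-46032627) had 0. The T-box core TCACACC, searched on both strands, was in 0 of the 12 windows and in 3.98% of all windows. A match describes these letters only and is not a bound site.

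Signals are given as normalized intensity, after loess within arrays and quantile normalization of mean intensities between arrays. Ratios are log2 of Tbx2-GOF over control on the same array, from loess-normalized intensities with no scaling between arrays, and intervals are limma's 95% intervals. Where a gene had several probes, the brightest stands for it. All 16 probes were well above background in both channels of both arrays and 0 were saturated.

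Ndrg1, measured by 1 probe (mm9 chromosome 15, 66761057 to 66761116), had signals of 2868 and 3171 in Tbx2-GOF ureters on arrays 1 and 2, against 2659 and 3803 in control ureters. The Tbx2-GOF signal was the higher one on array 1 and the lower one on array 2, and the genotypes overlapped. The log2 ratios were 0.11 and -0.26, with a mean of -0.08 ± 0.26 (SD, n = 2), an interval of -0.42 to 0.26 and an adjusted p of 0.9998 (limma, Benjamini-Hochberg over all genes). As a fold of Tbx2-GOF over control, the interval ran from 0.749 to 1.20. A p that misses the threshold does not show that the levels were the same. Set against the median of the other 9 genes, Ndrg1 was -0.0013 on array 1 and -0.40 on array 2, and that difference was not tested.

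Tbx2, the gene that the cre-bearing genotype is meant to raise, was measured by 1 probe. Its signals were 4396 and 4197 in Tbx2-GOF ureters, against 4291 and 2854 in control ureters, which gave log2 ratios of 0.04 and 0.56 and a mean of 0.30 ± 0.37 (adjusted p = 0.711). The files do not say whether the Hprt allele contains the probed stretch, so the probe does not check the labels. Of 6 genes with a reported part in Ndrg1 control, 0 passed the test, beside 0.640% of all genes. The MYC-family factors, which repress NDRG1 in other cells, were Mycn at 0.41 ± 0.09 and Myc at 0.41 ± 0.14 (adjusted p = 0.297 and 0.315). Their Tbx2-GOF signals exceeded their control signals on both arrays, as did those of 26.1% of all genes. Mycn had 16565 and 14369 in Tbx2-GOF ureters, against 13067 and 10348 in control ureters. Trp53, whose product activates NDRG1, was at 0.28 ± 0.25, Tbx3, the closest relative of Tbx2, at 0.18 ± 0.30 and Egr1 at 0.14 ± 0.06 (adjusted p = 0.670, 0.925 and 0.943).

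The paralogues Ndrg2, Ndrg3 and Ndrg4 were at 0.10 ± 0.33, 0.09 ± 0.15 and 0.14 ± 0.06 (adjusted p = 0.9998, 0.9998 and 0.951). NDRG1 is also abundant in Schwann cells. Over 15 neural and Schwann markers the summed signal was 127228 and 134979 in Tbx2-GOF ureters, against 85830 and 48752 in control ureters; 14 of the 15 genes were higher on both arrays, with medians of 0.48 and 1.66 on arrays 1 and 2, and 2 rose (Fabp7 at 1.57 and Th at 1.34, adjusted p = 0.0190 and 0.0431). Of all genes 26.1% were higher on both arrays and 0.360% rose. The part of this difference in the Ndrg1 ratio was not tested.

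**Figure D1:**
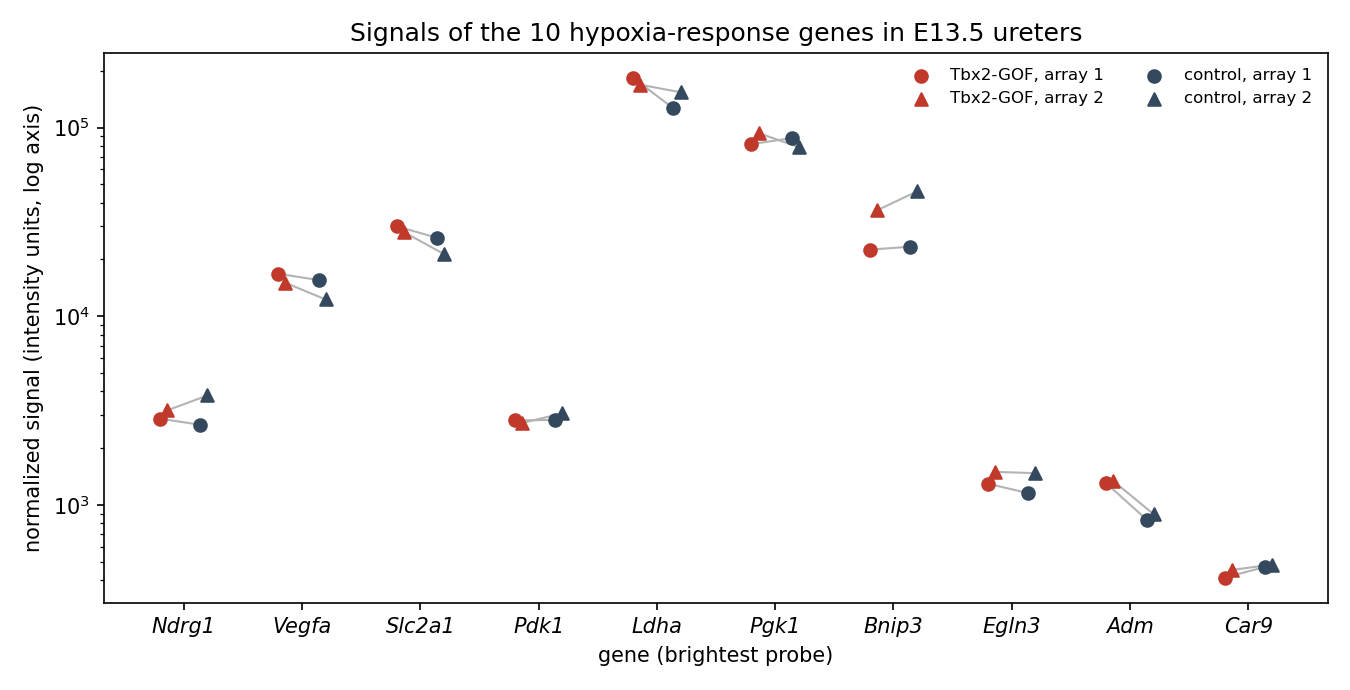
Normalized signals (intensity units, log axis) of the 10 hypoxia-response genes, with Tbx2-GOF in red on the left and control in dark blue on the right of each pair; circles are array 1, triangles array 2, and grey lines join the 2 channels of an array. Both Tbx2-GOF points of Adm, at 1302 and 1338, lie above both control points, at 837 and 893. The lines of Ndrg1 slope in opposite directions on the 2 arrays.

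Among secreted signals, Adm had signals of 1302 and 1338 in Tbx2-GOF ureters, against 837 and 893 in control ureters (1 probe, mm9 chromosome 7, 117773088 to 117773147). Both Tbx2-GOF signals exceeded both control signals, as was so for 18.2% of all genes. The log2 ratios of 0.64 and 0.58 on the 2 arrays gave a mean of 0.61 ± 0.04, or 1.53-fold with an interval of 1.24 to 1.88, which was higher than the ratio of 98.1% of all genes tested. Adm did not pass the test over all genes (adjusted p = 0.116 by limma), and its adjusted p ranged from 0.0636 to 0.579 over the 13 processing settings, with a log2 ratio between 0.61 and 0.65 in each. Endothelial cells make adrenomedullin. Over 13 endothelial markers the summed signal was 104302 and 105213 in Tbx2-GOF ureters, against 81562 and 86367 in control ureters. Of the 13, 12 were higher on both arrays, beside 26.1% of all genes. None of these markers passed the test, beside 0.640% of all genes. Their median ratio was 0.39 on array 1 and 0.19 on array 2. The part of these markers, and of the neural and Schwann markers above, in the Adm ratio was not tested.

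Vegfa encodes the growth factor that directs vessel formation. Its brighter probe had signals of 16799 and 15043 in Tbx2-GOF ureters, against 15560 and 12274 in control ureters (mm9 chromosome 17, 46154387 to 46154446). The Tbx2-GOF signal was the higher one on each array, but the genotypes overlapped across arrays. The mean ratio was 0.20 ± 0.13 (adjusted p = 0.835), and the second Vegfa probe was at 0.18 ± 0.17. The receptors of the 2 ligands include Kdr and Flt1 for VEGFA, at 0.32 ± 0.16 and 0.32 ± 0.27 (adjusted p = 0.532 and 0.590), and Calcrl with its partner Ramp2 for adrenomedullin, at 0.14 ± 0.29 and 0.25 ± 0.13 (0.983 and 0.707). Kdr and Flt1 are also among the 13 endothelial markers.

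Of 14 genes for VEGF and adrenomedullin ligands and receptors 0 rose and 1 fell, beside 0.640% of all genes called in either direction. The list median was 0.11, against -0.000524 over all genes. The gene that fell was Ackr3, a scavenging receptor that binds CXCL12 and adrenomedullin. It had 23335 and 21807 in Tbx2-GOF ureters, against 40703 and 39660 in control ureters (-0.83 ± 0.04, adjusted p = 0.0471). Ackr3 passed in 7 of the 13 settings, with adjusted p from 0.0178 to 0.501. Nrp2, a co-receptor for VEGF and semaphorins, was at 1.03 ± 0.55 (0.64 on array 1 and 1.42 on array 2, adjusted p = 0.0778) and passed in 3 settings. Vegfc was at 0.39 ± 0.17 and Vegfd, both ligands for lymphatic growth, at -0.44 ± 0.19 (adjusted p = 0.353 and 0.274).

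Of the genes of glucose supply and glycolysis, Ldha and Slc2a1 had the next highest ratios after Adm, and Pgk1 was near 0. Slc2a1, the glucose transporter GLUT1, had signals of 29965 and 27963 in Tbx2-GOF ureters, against 26083 and 21388 in control ureters (1 probe, mm9 chromosome 4, 118809864 to 118809923). Its Tbx2-GOF signals both exceeded the control signals, as was so for 18.2% of all genes. The mean ratio of 0.29 ± 0.13 did not pass the test (adjusted p = 0.586 by limma). Ldha, the lactate dehydrogenase subunit of anaerobic glycolysis, had 183245 and 168808 in Tbx2-GOF ureters, against 126483 and 153913 in control ureters at its brightest probe (mm9 chromosome 7, 54110937 to 54110996). That gave 0.53 and 0.13 on the 2 arrays and a mean of 0.33 ± 0.28 (adjusted p = 0.567).

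The other Ldha probes did not bear out array 1. They were at -0.25 and 0.84 (mean 0.30 ± 0.77) and at -0.12 and 0.67 (mean 0.27 ± 0.56) on arrays 1 and 2, so that the 3 probes differed in sign on array 1 and shared it on array 2. With median centring in place of loess, the brightest probe was at 1.00 on array 1 and -0.47 on array 2. Pgk1, phosphoglycerate kinase, had 81749 and 93486 in Tbx2-GOF ureters, against 87987 and 78815 in control ureters, with opposite signs on the 2 arrays (-0.11 and 0.25, mean 0.07 ± 0.25, adjusted p = 0.9998). The scanner files place the Pgk1 probe on chromosome 3 (mm9, 57906830 to 57906894), whereas the gene lies on chromosome X. A copy elsewhere may share its sequence, and the Pgk1 value is uncertain for that reason. Glycolytic enzymes have many near-identical processed copies, and none of these probes was checked for them.

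**Figure D2:**
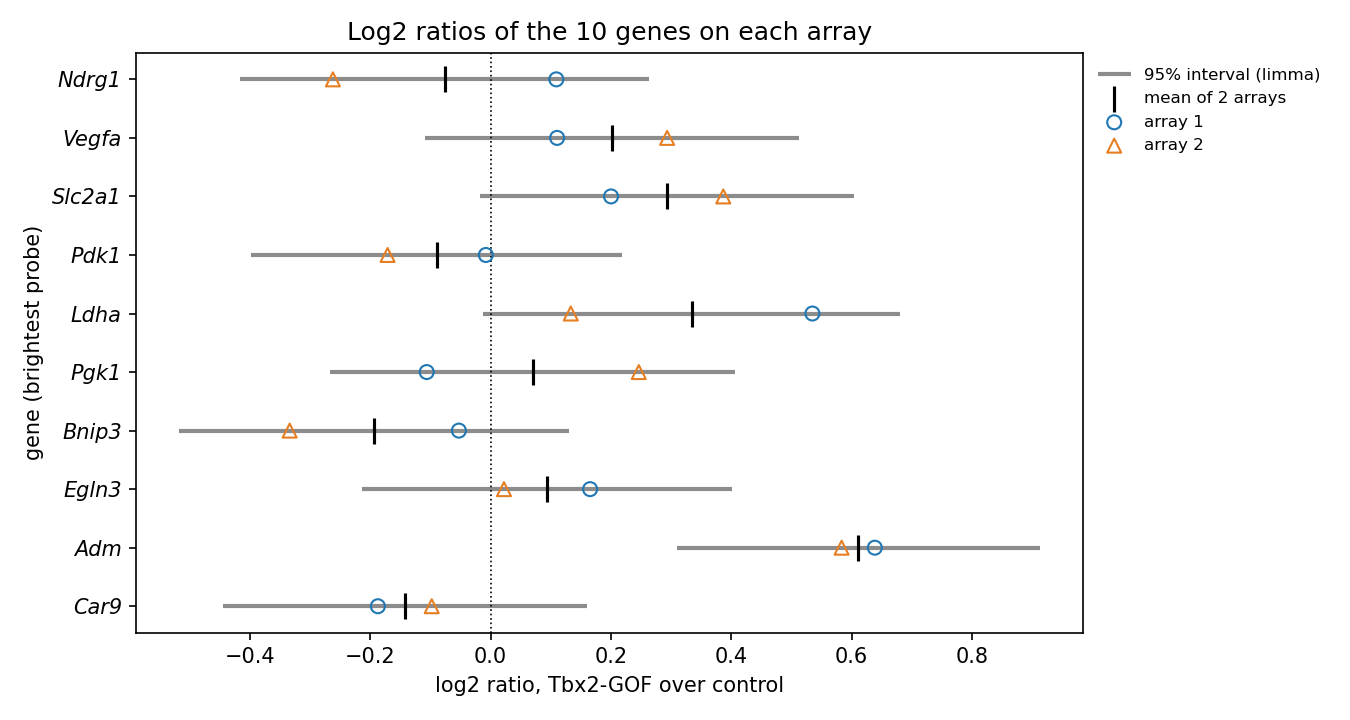
Log2 ratio of Tbx2-GOF over control for each of the 10 genes (rows); circles are array 1, triangles array 2, black ticks the mean of both and grey bars the 95% interval from limma. The bar of Adm, from 0.31 to 0.91, alone lies clear of 0, and the points of Ndrg1 and Pgk1 lie on opposite sides of it.

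Of the genes that act on mitochondria, Pdk1, the kinase that keeps pyruvate out of the citric acid cycle, had signals of 2806 and 2717 in Tbx2-GOF ureters, against 2821 and 3059 in control ureters (mm9 chromosome 2, 71739688 to 71739747). The Tbx2-GOF signals lay just below both control signals, as for 16.3% of all genes, and the ratio was -0.09 ± 0.12 (adjusted p = 0.9998 by limma). Bnip3, a mitochondrial protein of mitophagy, had 22538 and 36412 in Tbx2-GOF ureters, against 23375 and 45890 in control ureters at its brightest probe (mm9 chromosome 7, 146082760 to 146082819). Its signal differed more between the arrays than between the genotypes. The ratio was -0.19 ± 0.20 (adjusted p = 0.875), and the other Bnip3 probes were at -0.01 ± 0.01 and -0.08 ± 0.05; with the mean of its probes Bnip3 was at -0.09, and with median centring at -0.30.

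Egln3, the HIF prolyl hydroxylase that is itself induced by HIF, had 1295 and 1497 in Tbx2-GOF ureters, against 1155 and 1474 in control ureters (mm9 chromosome 12, 55280953 to 55281012). The signals overlapped between genotypes. Its ratio was 0.09 ± 0.10 (adjusted p = 0.9998), and 0.13 ± 0.18 at the second probe. Car9, a membrane carbonic anhydrase used as a marker of hypoxic tissue, was the dimmest of the 10, with 412 and 452 in Tbx2-GOF ureters, against 469 and 483 in control ureters (mm9 chromosome 4, 43526518 to 43526577). Both Tbx2-GOF signals lay below both control signals, as for 16.3% of all genes, by a ratio of -0.14 ± 0.06 (adjusted p = 0.943 by limma).

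At the threshold of 0.05 for limma's adjusted p, 0 of the 10 genes were called, beside 0.640% of all genes tested. Without adjustment 1 gene was under 0.05 (Adm, higher in Tbx2-GOF), beside 9.34% of all genes in either direction and 5.63% in the higher direction. Of the 16 probes 0 passed when all kept probes were tested singly, beside 0.419% of those probes. The separate-channel model also called 0 of the 10, as did each of the other settings. On both arrays 5 genes had ratios above 0 (Vegfa, Slc2a1, Ldha, Egln3 and Adm) and 3 had ratios below 0 (Pdk1, Bnip3 and Car9), beside 26.1% and 25.1% of all genes. The other 2, Ndrg1 and Pgk1, had opposite signs, as did 48.8% of all genes. Both Tbx2-GOF signals exceeded both control signals for 3 genes (Slc2a1, Ldha and Adm), beside 18.2% of all genes, and lay below them for 2 (Pdk1 and Car9), beside 16.3%. Of the 10 mean ratios 7 lay within 0.25 of 0, as did 84.1% of all genes. The median of the 10 was 0.08, with 0.11 on array 1 and 0.08 on array 2, against -0.000524 over all genes. None was at least 1.5-fold higher on both arrays, a size that 0.825% of all genes reached; Adm was 1.56-fold on array 1 and just under that size on array 2.

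**Figure D3:**
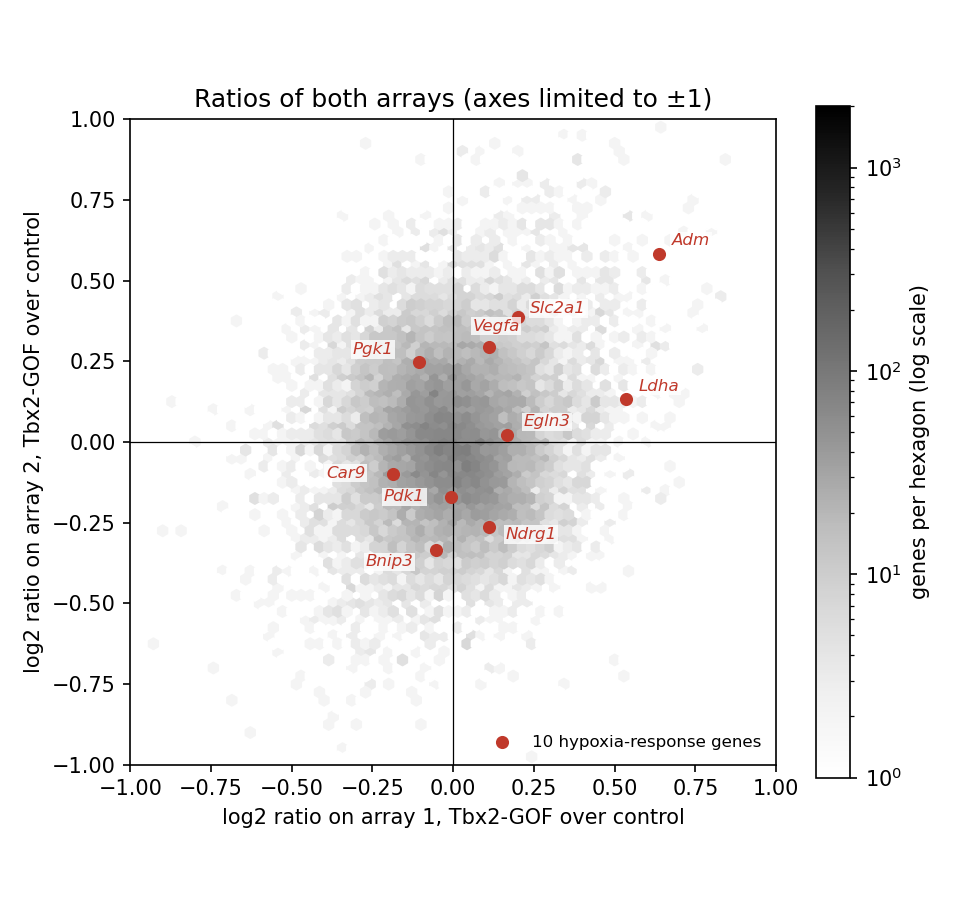
Log2 ratio on array 1 (x) against array 2 (y) for all genes within ±1 on both axes, as hexagons shaded by the number of genes on a log scale, with the 10 hypoxia-response genes in red. Adm sits toward the upper right at 0.64 and 0.58, and Ndrg1, at 0.11 and -0.26, lies within the dense centre.

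Of 13 genes of the HIF machinery 0 rose and 0 fell, beside 0.640% of all genes called in either direction. The list median was 0.05. Epas1, the HIF-2 alpha subunit, had signals of 17287 and 16268 in Tbx2-GOF ureters, against 13650 and 11379 in control ureters (0.43 ± 0.12, adjusted p = 0.271), and with the mean of its probes it was at 0.19. Cited2, a HIF-inducible protein that competes with HIF-1 alpha for CBP and p300, had 7638 and 8310 in Tbx2-GOF ureters, against 5635 and 6365 in control ureters (0.41 ± 0.04, adjusted p = 0.281). For both genes the 2 Tbx2-GOF signals exceeded the 2 control signals, as was so for 18.2% of all genes. Hif1a, the HIF-1 alpha subunit, which is controlled mainly as a protein, was at -0.19 ± 0.25 and its partner Arnt at -0.21 ± 0.24 (adjusted p = 0.884 and 0.849). Egln1, the main oxygen sensor, was at 0.15 ± 0.35 and Vhl at -0.07 ± 0.22 (adjusted p = 0.974 and 0.9998).

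A longer list of other HIF targets had 41 of 42 genes measured; Epo, the kidney and liver hormone erythropoietin, had no channel well above background. None of the 41 rose or fell, beside 0.640% of all genes called in either direction. An unadjusted p under 0.05 was found for 13, beside 9.34% of all genes. Of the 13, 11 were higher and 2 lower in Tbx2-GOF ureters, beside 5.63% and 3.71% of all genes. Above 0 on both arrays were 25 genes and below 0 on both arrays 5, beside 26.1% and 25.1% of all genes, with a list median of 0.13 against -0.000524 over all genes; the array medians were 0.14 and 0.22. These counts held between 23 and 26 genes above 0, and medians between 0.11 and 0.15, over the 13 settings.

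Among the 41 the highest were Car12, a carbonic anhydrase, at 0.67 ± 0.25 and Cox4i2, the hypoxic subunit of cytochrome c oxidase, at 0.63 ± 0.25 (adjusted p = 0.119 and 0.140). Car12 had 2599 and 2500 in Tbx2-GOF ureters, against 1844 and 1394 in control ureters. Pfkp, a phosphofructokinase, was at 0.62 ± 0.44 (adjusted p = 0.223) but ranged from 0.32 to 0.75 over the settings. Slc2a3, the glucose transporter GLUT3, was at 0.49 ± 0.32 (adjusted p = 0.270).

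Of the 41 genes 9 were among the 2110 brightest of all genes: Aldoa, Gpi1, Gapdh, Tpi1, Pgam1, Eno1 and Pkm of glycolysis, with Bnip3l and Fam162a. Of the 9, 6 were above 0 on both arrays and 0 were below, beside 15.6% and 16.7% of the 2110 genes. Pgam1, phosphoglycerate mutase, had 136866 and 139690 in Tbx2-GOF ureters, against 110617 and 105625 in control ureters (0.36 ± 0.07, adjusted p = 0.395). Plod2 and Lox, which act in collagen maturation, were at the other end of the list. The collagen prolyl hydroxylases P4ha1 and P4ha2, also on it, were near 0, at 0.09 ± 0.23 and -0.05 ± 0.03. Plod2, a lysyl hydroxylase, was at -0.49 ± 0.27 and Lox, lysyl oxidase, at -0.31 ± 0.10 (adjusted p = 0.256 and 0.517).

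**Figure D4:**
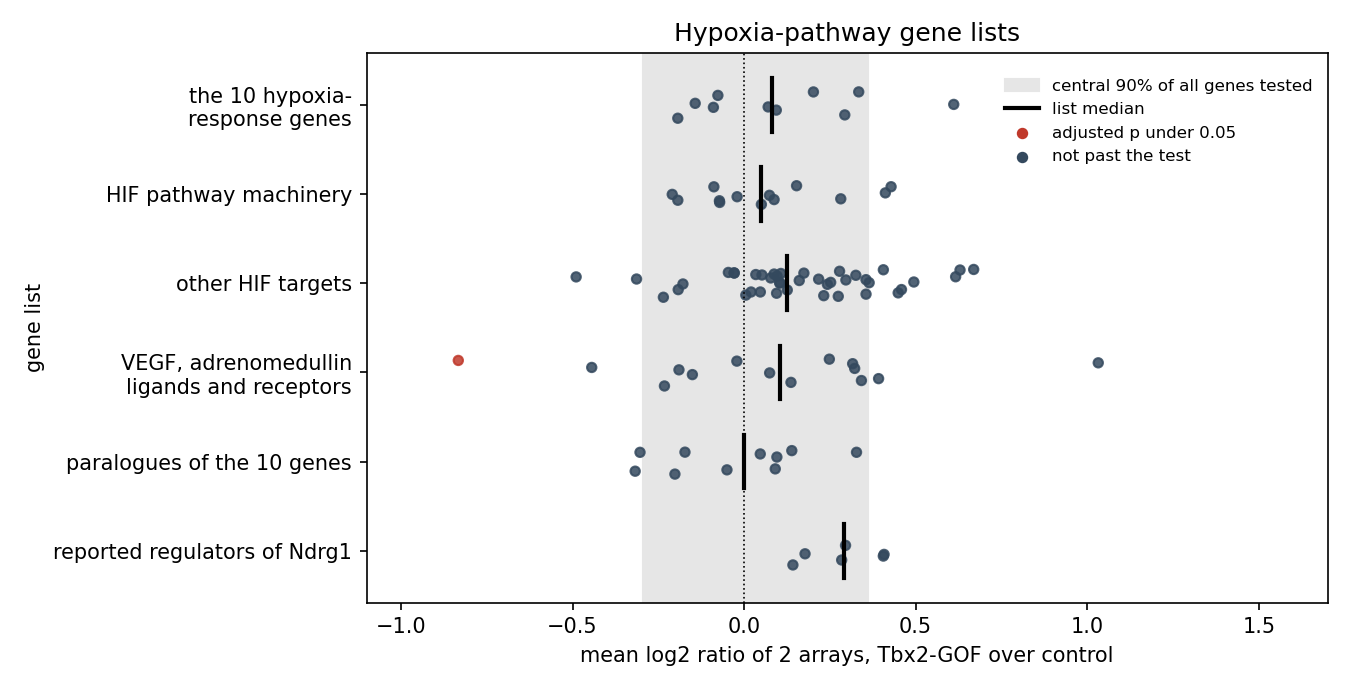
Mean log2 ratio of Tbx2-GOF over control (x) for each measured gene of 6 lists (rows); black bars are list medians, the grey band is the central 90% of all genes tested, and red marks an adjusted p under 0.05. The median of the other HIF targets, at 0.13, lies inside the band, and Ackr3, at -0.83, is the only red point.

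Of 10 measured paralogues of the 10 genes 0 rose and 0 fell, beside 0.640% of all genes called in either direction. Their median was -0.0014. The farthest from 0 with 1 sign on both arrays were the carbonic anhydrases Car14, at 0.33 ± 0.35, and Car2, at -0.30 ± 0.09, with the kinase Pdk4 at -0.32 ± 0.32 and the insulin-responsive glucose transporter Slc2a4 at -0.20 ± 0.01 (adjusted p = 0.631, 0.540, 0.638 and 0.820). Pdk3 was at -0.17 ± 0.17, Pdk2 at -0.05 ± 0.07 and Ldhb, the lactate dehydrogenase subunit of aerobic tissue, at 0.05 ± 0.27 (adjusted p = 0.907, 0.9998 and 0.9998). Slc2a2, Ldhc, Pgk2 and Adm2 did not pass the filter on dim probes. Stress of dissection was checked with 10 measured early-response and heat-shock genes. Of these 0 passed the test, beside 0.640% of all genes, and their median was 0.13.

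Markers of the tissue that the labels name were measured, as were those of other tissues, so their detection does not verify the tissue. All 14 urothelial markers and all 10 markers of ureteric mesenchyme were measured, with summed signals of 55375 and 63410 in Tbx2-GOF ureters, against 55543 and 60808 in control ureters, for the urothelium, and of 226289 and 225042 in Tbx2-GOF ureters, against 277577 and 210321 in control ureters, for the mesenchyme. The brightest gene of each sum was Krt18, at 30183 and 34740 in Tbx2-GOF ureters, and Bmp4, at 97542 and 90831. Of the urothelial markers 1 fell (Upk3a, a uroplakin, at -0.86 ± 0.01, adjusted p = 0.0450 by limma), and of the mesenchymal markers 0 passed the test. Upk2, another uroplakin, was at 0.84 ± 0.31 and did not pass (adjusted p = 0.0715 by limma). On both arrays 5 of the 14 urothelial markers were higher and 3 lower, beside 26.1% and 25.1% of all genes. The median of the 14 was 0.07. Markers of other tissues differed as well, where 0.280% of all genes fell and 0.360% rose. Of 10 skeletal muscle markers 4 fell (Tnnt3, Myh8, Acta1 and Chrna1, between -1.66 and -0.97), with a sum of 11106 and 31197 in Tbx2-GOF ureters, against 45296 and 55146 in control ureters. Of 9 liver and plasma protein genes 5 fell (Ttr, Serpina1a, Ahsg, Alb and Afp). Serpina1a was at -1.46 ± 0.31, Alb at -2.15 ± 0.34 and Afp at -2.95 ± 0.29. The summed signal of all 9 was 6147 and 6324 in Tbx2-GOF ureters, against 8879 and 11479 in control ureters. Its largest part was Trf, which did not pass the test (3782 and 3795, against 3619 and 4897). In Tbx2-GOF ureters Ttr and Ahsg were well above background on 1 of the 2 arrays, so no size is given for them. Of 9 nephron and collecting duct genes 2 rose (Six2 at 1.85 and Pax8 at 0.95; summed signal 38655 and 36592 in Tbx2-GOF ureters, against 27736 and 25908 in control ureters). Of 13 erythroid genes 0 passed the test and 9 were lower on both arrays, beside 25.1% of all genes. Their summed signal was 735799 and 653921 in Tbx2-GOF ureters, against 711280 and 889854 in control ureters. Bright globins weigh most in that sum: Hbb-y alone had 260236 and 202438 in Tbx2-GOF ureters, against 195619 and 257195 in control ureters. The part of these marker lists in the ratios of the 10 genes was not tested.

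**Figure D5:**
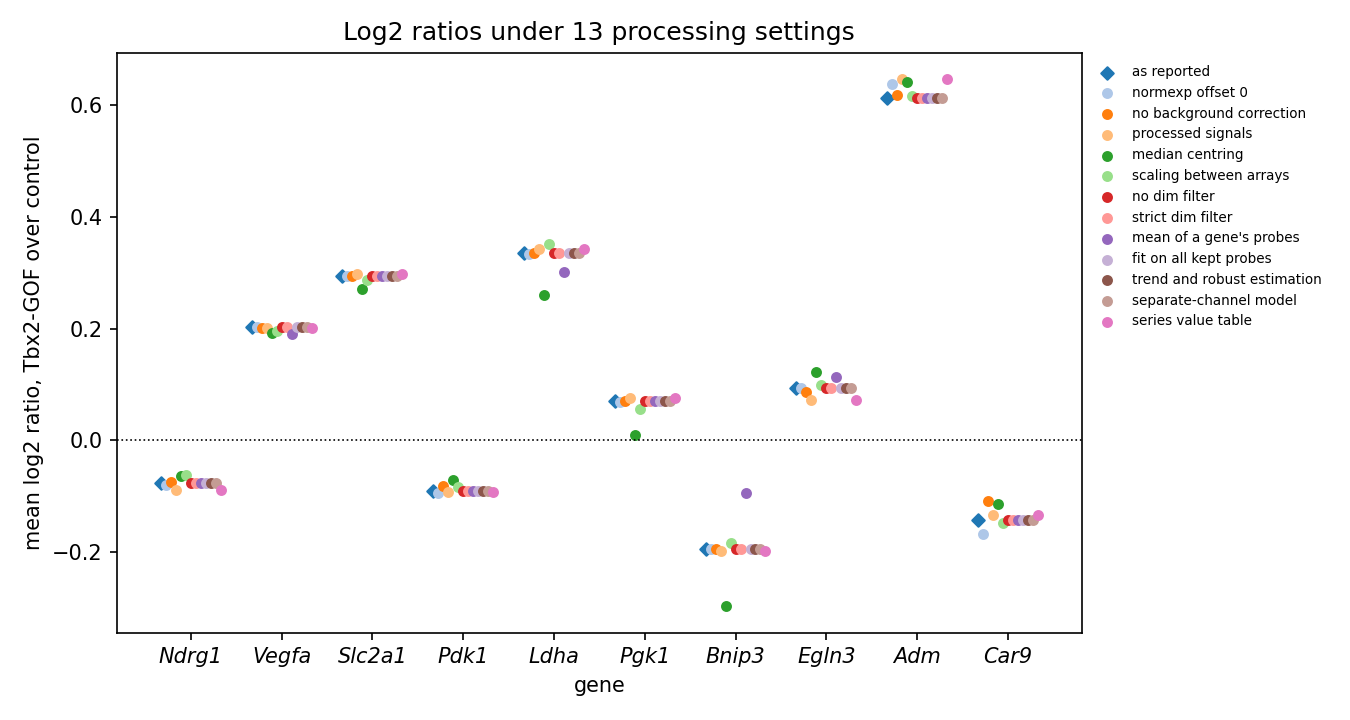
Mean log2 ratio of Tbx2-GOF over control (y) of the 10 genes (x) under 13 processing settings; the diamond is the value as reported and each colour 1 alternative. Adm stays between 0.61 and 0.65 and Ndrg1 between -0.09 and -0.06, while Bnip3 spreads from -0.30 to -0.09. Settings that change only the filter or the test repeat the reported values, and the series table repeats those of the processed signals.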

How the data were processed

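RNA of 2 dye-swapped arrays was measured. Per the submitters' processing notes the spots were read by Agilent's Feature Extraction, version 10.7.3.1. Mean spot and background signals are raw intensity, per the file headers. The deposited processed signals are intensity after the software's background subtraction, detrending and dye normalization. Its log ratio column is on the log10 scale, red divided by green, as stated per the file headers. Signed fold ratios with no stated direction make up the deposited series table. In 99.2% and 98.8% of probes compared it matched the log10 ratio, oriented as Tbx2-GOF over control, within 0.01.

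Ratios were computed with limma 3.58.1 in R 4.3.3 (normexp with offset 50, loess with span 0.3, no scaling between arrays) and turned by the dye labels. A probe entered (26471 of 39429) if 1 genotype was well above background on both arrays, and each gene took its brightest kept probe. All 21097 genes were fitted with lmFit and eBayes (residual df 1, prior df 6.36), two-sided, and adjusted by Benjamini-Hochberg with a threshold of 0.05. "Rose" and "fell" mark genes past this test. Probe positions come from the scanner files (mm9); exon and UTR positions were not used here. The functions were tested on simulated arrays. The number of arrays limits the precision, and array and dye orientation cannot be told apart.

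The genes, lists and tests were chosen with earlier results of these data known. All 10 genes are named, and from each other pathway list the genes past the test and up to 4 farthest from 0 with 1 sign on both arrays, plus genes of the machinery, paralogue and regulator lists as needed. From marker lists the genes past the test are named. Outside this rule, and chosen after their values were seen, are Kdr, Flt1, Calcrl, Ramp2, Plod2, Lox, P4ha1, P4ha2, Pgam1 and the other bright HIF targets. The same holds for the markers Trf, Krt18, Bmp4, Hbb-y and Upk2.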

Additional observations from a re-analysis of the deposited data

How the results depend on the processing

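The call of 0 among the 10 genes was the same in all 13 settings that used both arrays, and no mean ratio of the 10 changed sign. Not all of these settings can move a ratio. For the 10 genes both dim-filter settings, the fit on all kept probes, trend and robust estimation and the separate-channel model repeat the reported ratios. The series table repeats the ratios of the processed signals. Where 0 of all genes passed, 0 of the 10 was fixed in advance. The count of all genes past the test moved: 0 with median centring, 0 with processed signals and 0 with the series table (1219, 2055 and 2023 genes in that order at an unadjusted p under 0.05, limma), 4 with the separate-channel model, 211 with the mean of a gene's probes, 276 with no dim filter and 313 with scaling, against 135 as reported; the cause was not tested. With 1 array left out, which gives a value and no test, Ndrg1 ranged from -0.26 to 0.11 and its difference from the median of the other 9 genes from -0.40 to -0.0013. Thus the sign of the Ndrg1 ratio rests on array 2. Its mean ranged from -0.09 to -0.06 over the settings, and the difference was -0.20 as reported and -0.28 to -0.13 over them. With median centring 4 of the 10 genes were above 0 on both arrays and 1 below, against 5 and 3 as reported. Bnip3 ranged from -0.30 with median centring to -0.09 with the mean of its probes. The fit on within-array ratios is itself the paired analysis, since each array holds both genotypes. The separate-channel model is the other form that was run, and it called 0 of the 10 genes and 4 of all genes.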
